A study of Homo sapiens with 24 samples.

Results

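The genes followed here were 10 members of the NF-κB pathway, chosen by name: the inhibitors NFKBIA, NFKBIE and TNFAIP3, the subunits NFKB1, NFKB2, RELA and RELB, and the chemokines IL8 (now CXCL8), CXCL1 and CXCL2. Of these, 9 were matched by symbol in a table of 18915 genes and all 9 passed the filter on low counts, which left 12685 genes, while CXCL1 was not analysed here. The RNA came from HepG2, an established human hepatoma line, in 6 groups of 4 libraries each, 24 in all, harvested after 10 h. The groups received DMSO as the vehicle, ISRIB at 50 nM, nelfinavir at 20 µM, bortezomib at 50 nM, bortezomib with nelfinavir, or bortezomib with ISRIB, the co-treatments using the same doses. Bortezomib is a proteasome inhibitor, nelfinavir is an HIV protease inhibitor that also activates the integrated stress response, and ISRIB blocks the translational effect of eIF2α phosphorylation. The 4 libraries of a group are biological replicates by the submitters' account, and the p-values weigh differences between groups against the spread between replicates.

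NF-κB is a family of paired transcription factors. In resting cells the pairs, such as the p50 made from NFKB1 with RELA, are held in the cytoplasm by inhibitors of the IκB family, and signals from receptors such as those for TNF and IL-1 lead to phosphorylation of the inhibitor, its ubiquitination and its destruction by the proteasome. The freed factor then raises its own brakes, among them NFKBIA and TNFAIP3, and chemokines that attract neutrophils. A second branch works through processing of the NFKB2 product p100 to p52, which pairs with RELB, and that processing also needs the proteasome.

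Levels are given in CPM, a gene's share of the counts in its library scaled to a common total, with edgeR's TMM factors applied for differences in composition. Differences are log2 fold changes from the quasi-likelihood test of edgeR, with p adjusted over all 12685 genes by the Benjamini-Hochberg method. A gene was called where its adjusted p was under 0.05. Total counts ran from 5154533 to 6943164. Mitochondrially encoded transcripts took 18.02 to 23.2% of the counts in the libraries without bortezomib and 24.9 to 40.2% in those with it, and bortezomib with ISRIB replicate 4 stood highest, with the lowest TMM factor, 0.786. Bortezomib with ISRIB replicate 3 lay farthest from its own group. The part of these differences in the results was not tested, but with library totals in place of TMM factors the median log2 fold change of all genes in bortezomib against DMSO shifted by -0.50, and the split of called genes went from 3498 higher and 3275 lower to 1490 higher and 6266 lower. All 8 hepatocyte markers looked for were present and tested, and their summed level was 11232 to 13290 CPM without bortezomib, 8909 to 9405 CPM in bortezomib, 5833 to 7351 CPM with nelfinavir added and 8351 to 9732 CPM with ISRIB added. Of the markers of other cells, 3 of 4 for leukocytes were matched, CD14, CD68 and LYZ (PTPRC was not analysed here), and CD14 did not pass the filter on low counts. Their summed level was 244 to 439 CPM without bortezomib and 66.8 to 234 CPM with it, and which cells carried these transcripts was not tested. For fibroblasts 2 of 3 were matched and reached at most 1.26 CPM, and the 3 for endothelium were not analysed here. In bulk RNA, fewer cells that express a gene and less RNA per cell cannot be told apart.

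The starts of 7 of the 9 members were found in the RefSeq promoter table (GRCh38.p14), in 11 windows of 250 bases before the start. NFKBIE and RELB are named only. The windows were searched on both strands for the NF-κB (κB) consensus, for the 9 letters GGANTTTCC, a looser κB form chosen with the IL8 site known, and for the AP-1 site TGANTCA. The consensus was found in 6 of the 11 windows, from 5 members, where 9.96% of all 35116 windows of that length hold it, and the looser form in 6 of the 11, from 6 members, where 1.45% hold it. NFKB2 alone had 3 of the 11 windows. IL8 is among the 6 members with the looser form, whose letters were chosen with its site known. The shares are therefore a description and not a test. The kinds of κB match overlap where both occur at one place. AP-1 letters were found in 1 of the 11, that of IL8, and in 6.57% of all windows. The CRE letters TGACGTCA (1.65% of all windows) and TTGCATCA, a C/EBP-ATF site (0.772%), were found in none of the 11. A match is a run of letters, not a site shown to be used. The 4 windows that follow are those of NFKBIA and TNFAIP3, both lower with bortezomib, of IL8, higher with it, and of CXCL2, called in no comparison. They are shown with κB and AP-1 matches in capitals, written 5′ to 3′ on the strand of the gene.
NFKBIA (chr14:35404750-35404999, minus strand): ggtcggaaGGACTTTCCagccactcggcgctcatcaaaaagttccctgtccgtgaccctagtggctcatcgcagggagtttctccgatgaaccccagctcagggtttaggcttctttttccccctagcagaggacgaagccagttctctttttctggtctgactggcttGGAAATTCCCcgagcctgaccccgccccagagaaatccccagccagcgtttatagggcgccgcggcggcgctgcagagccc
TNFAIP3 (chr6:137867009-137867258, plus strand): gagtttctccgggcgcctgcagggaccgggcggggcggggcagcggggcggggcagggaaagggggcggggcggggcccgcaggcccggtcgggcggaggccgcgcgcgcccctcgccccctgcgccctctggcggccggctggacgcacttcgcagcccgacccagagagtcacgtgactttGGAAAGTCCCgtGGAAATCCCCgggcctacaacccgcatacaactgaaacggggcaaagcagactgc
IL8 (chr4:73740319-73740568, plus strand): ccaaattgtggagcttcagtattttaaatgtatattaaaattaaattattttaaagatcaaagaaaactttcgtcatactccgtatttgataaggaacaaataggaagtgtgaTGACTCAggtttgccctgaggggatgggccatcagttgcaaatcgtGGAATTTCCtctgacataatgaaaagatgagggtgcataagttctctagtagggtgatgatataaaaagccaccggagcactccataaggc
CXCL2 (chr4:74099196-74099445, minus strand): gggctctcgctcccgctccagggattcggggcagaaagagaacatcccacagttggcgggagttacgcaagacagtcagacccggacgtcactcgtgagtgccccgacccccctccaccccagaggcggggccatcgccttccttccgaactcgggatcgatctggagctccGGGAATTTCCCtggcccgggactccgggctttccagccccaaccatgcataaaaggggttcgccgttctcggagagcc
NFKBIA carries κB matches from -242 to -234 and from -81 to -72, counted back from the start. TNFAIP3 carries a close pair, from -67 to -58 and from -55 to -46. In IL8 the AP-1 letters lie from -137 to -131, upstream of the looser κB form from -91 to -83. CXCL2 has a κB match from -78 to -68.

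NFKBIA, which encodes IκBα, the inhibitor that NF-κB itself induces, was lower with each of nelfinavir and bortezomib and lowest with both (gene on GRCh37 chr14:35870285-35873955, minus strand). Its level was 259, 263, 231 and 246 CPM in the DMSO libraries and 255, 219, 265 and 235 CPM in ISRIB. It was 182, 154, 182 and 149 CPM in nelfinavir and 168, 188, 186 and 194 CPM in bortezomib. Every library of either drug lay below every library of DMSO and of ISRIB. With bortezomib and nelfinavir together it was 71.7, 81.7, 88.6 and 79.2 CPM, below every other library of the study, whereas with bortezomib and ISRIB it was 184, 192, 203 and 152 CPM, overlapping bortezomib alone. Against DMSO it fell to 0.738 of the level in bortezomib (a log2 fold change of -0.44 with an SE of 0.093, adjusted p = 0.000166) and to 0.668 in nelfinavir (a log2 fold change of -0.58 with an SE of 0.092, adjusted p = 1.31e-05). Scaled by library totals alone, it was at -0.94 in bortezomib and -0.61 in nelfinavir (log2, edgeR adjusted p = 3.33e-10 and 1.10e-05 respectively). On that scale it fell more in bortezomib than in nelfinavir. Adding nelfinavir to bortezomib lowered it to 0.436 of the level with bortezomib alone (a log2 fold change of -1.20 with an SE of 0.097, adjusted p = 2.82e-11). This fall exceeded the one that nelfinavir gave without bortezomib, with an interaction of -0.61 ± 0.13 SE on the log2 scale (95% interval -0.89 to -0.34; edgeR adjusted p = 0.00107). Adding ISRIB to bortezomib gave a difference whose 95% interval ran from -0.20 to 0.18 (log2; adjusted p = 0.96).

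TNFAIP3 (A20), a ubiquitin-editing enzyme that shuts off signalling above the IκB kinase, fell in the same treatments (chr6:138188351-138204451, plus strand). The level was 41.3, 39.3, 39.7 and 33.2 CPM in DMSO, 38.97, 35.95, 29.5 and 36.2 CPM in ISRIB and 25.1, 20.8, 18.9 and 22.6 CPM in nelfinavir. It was 23.1, 15.3, 10.98 and 14.9 CPM in bortezomib, 9.09, 5.22, 8.45 and 5.63 CPM with nelfinavir added and 13.8, 14.7, 13.1 and 16.5 CPM with ISRIB added. DMSO and ISRIB overlapped each other and lay above the remaining 4 groups, nelfinavir overlapped bortezomib, and bortezomib with nelfinavir lay below all others. The change was -1.26 ± 0.17 SE for bortezomib (log2; adjusted p = 1.51e-07) and -0.81 ± 0.16 SE for nelfinavir (log2; adjusted p = 0.000272) against DMSO. Nelfinavir lowered it in the presence of bortezomib to 0.443 of the level with bortezomib alone (a log2 fold change of -1.17 with an SE of 0.20, adjusted p = 3.36e-05). Here the loss was not shown to differ from that without bortezomib (interaction -0.89 to 0.16 as a 95% interval on the log2 scale, adjusted p = 0.345). The gene overlaps the antisense gene WAKMAR2 on the opposite strand, which had 141 counts over all libraries against 3697 for TNFAIP3, and since the strand setting of the counting is not given in the sources used here, their reads may not be fully separated.

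NFKBIE, which encodes IκBε, passed the test in bortezomib by the smallest margin of the called members (chr6:44225903-44233525, minus strand). It stood at 7.44, 7.16, 6.86 and 7.11 CPM in DMSO, 7.95, 7.22, 5.79 and 11.1 CPM in ISRIB and 5.97, 5.55, 7.01 and 8.44 CPM in nelfinavir. It stood at 1.71, 6.79, 2.96 and 5.83 CPM in bortezomib, 3.17, 2.498, 3.93 and 2.06 CPM with nelfinavir added and 5.57, 5.86, 5.896 and 3.21 CPM with ISRIB added. The bortezomib libraries spread over a range of 1.71 to 6.79 CPM and all lay below the DMSO range of 6.86 to 7.44 CPM. It fell in bortezomib against DMSO (a log2 fold change of -0.71 with an SE of 0.30, adjusted p = 0.0448), but the call was lost without DMSO replicate 1, 2, 3 or 4 or bortezomib replicate 1 or 3 or with only the compared groups in the model (adjusted p up to 0.152). Between bortezomib with nelfinavir and bortezomib with ISRIB the ranges overlapped, with an adjusted p of 0.0768.

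**Figure D1:**
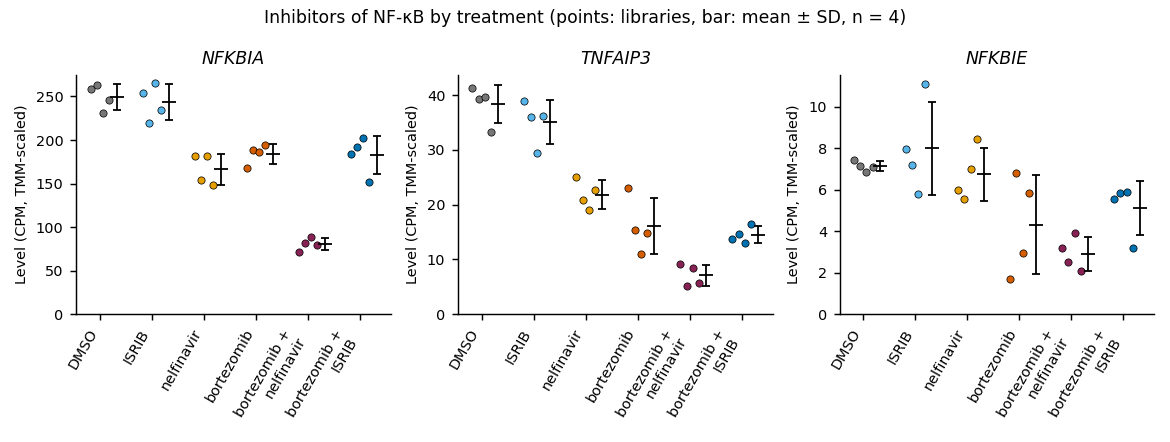
Levels of the 3 inhibitor genes (y axis, CPM scaled with TMM factors) in the 6 treatment groups (x axis). Points are libraries and the bar beside them is the mean ± SD (n = 4). NFKBIA and TNFAIP3 are lowest in all 4 libraries of bortezomib with nelfinavir, whereas the NFKBIE points of neighbouring groups overlap.

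Among the subunits, both genes of the second branch rose with bortezomib and NFKB1 fell. NFKB2, the gene of p100 and p52, stepped up in every library with bortezomib (chr10:104153867-104162281, plus strand). It stood at 10.6, 11.7, 10.9 and 12.3 CPM in DMSO, 11.1, 8.66, 16.5 and 8.75 CPM in ISRIB and 11.8, 11.7, 11.7 and 10.9 CPM in nelfinavir. With bortezomib it was 27.4, 42.3, 30.8 and 34.8 CPM, with nelfinavir added 20.7, 22.5, 20.2 and 25.3 CPM, and with ISRIB added 29.8, 33.5, 32.6 and 25.2 CPM. The 12 libraries with bortezomib all lay above the 12 without it. The rise over DMSO was 2.98-fold (a log2 fold change of 1.57 with an SE of 0.17, adjusted p = 1.53e-09). Nelfinavir took it down to 0.656 of the level with bortezomib alone, with the ranges apart (a log2 fold change of -0.61 with an SE of 0.17, adjusted p = 0.00569). Leaving out bortezomib replicate 2, the highest at 42.3 CPM, ended this call (log2 fold change -0.44, adjusted p = 0.0608). Bortezomib with nelfinavir was also lower than bortezomib with ISRIB (a log2 fold change of -0.45 with an SE of 0.17, adjusted p = 0.0465), a difference whose ranges overlapped at 1 library and whose call was lost without bortezomib with nelfinavir replicate 1, 2, 3 or 4 or bortezomib with ISRIB replicate 1, 2 or 3, with RLE factors, with library totals alone, with no filter on low counts, with a replicate block or with only the compared groups in the model (adjusted p up to 0.168). Without bortezomib the interval for nelfinavir against DMSO ran from -0.33 to 0.38 (log2), and the interaction of the drugs had an adjusted p of 0.0615.

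RELB, the partner of p52, was higher with bortezomib but with a wide spread (chr19:45504719-45541450, plus strand). It measured 10.3, 10.02, 8.397 and 9.31 CPM in DMSO, 11.2, 11.3, 13.3 and 11.8 CPM in ISRIB and 18.04, 10.6, 12.6 and 12.9 CPM in nelfinavir. It measured 23.95, 21.9, 11.8 and 26.6 CPM in bortezomib, 14.2, 17.3, 12.8 and 19.7 CPM with nelfinavir added and 14.2, 16.96, 26.5 and 6.17 CPM with ISRIB added. Each library of ISRIB, nelfinavir and bortezomib lay above the highest DMSO library, but only bortezomib passed the test (a log2 fold change of 1.14 with an SE of 0.26, adjusted p = 0.000317). For nelfinavir the adjusted p was 0.182, and 0.0208 in a model of these 2 groups alone. Bortezomib with ISRIB held the lowest library of the bortezomib series, replicate 4, and one of its highest, replicate 3. Without replicate 3, RELB was called lower in bortezomib with ISRIB than in bortezomib alone (log2 fold change -0.75, adjusted p = 0.0462), and with all libraries the adjusted p was 0.354.

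RELA, which encodes the p65 subunit that carries the activating domain, rose in nelfinavir and, under TMM scaling but not with library totals, in bortezomib (chr11:65421070-65430561, minus strand). The DMSO libraries were tight, at 47.99, 51.3, 50.8 and 49.02 CPM. ISRIB gave 62.1, 55.6, 72.6 and 57.9 CPM, nelfinavir 66.8, 57.4, 79.7 and 65.3 CPM and bortezomib 68.2, 78.2, 55.8 and 69.8 CPM. With nelfinavir added to bortezomib the level was 75.9, 72.2, 75.4 and 90.5 CPM and with ISRIB added 60.1, 69.1, 81.5 and 73.8 CPM. Every treated library lay above all DMSO libraries, and the treated groups overlapped each neighbour in the order of means. The change passed the test for nelfinavir (a log2 fold change of 0.44 with an SE of 0.11, adjusted p = 0.00578) and for bortezomib (a log2 fold change of 0.45 with an SE of 0.12, adjusted p = 0.00153), the latter turning to -0.046 (log2, adjusted p = 0.755) when libraries were scaled by their totals alone. For ISRIB the log2 fold change of 0.32 had an unadjusted p of 0.00948 and an edgeR adjusted p of 0.719.

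NFKB1, the gene of p105 and p50, was lower with bortezomib (chr4:103422487-103538459, plus strand). It gave 50.7, 56.8, 44.8 and 47.8 CPM in DMSO, 46.3, 48.8, 38.6 and 49.9 CPM in ISRIB and 50.4, 44.1, 50.5 and 49.6 CPM in nelfinavir. It gave 26.9, 32.6, 49.6 and 39.1 CPM in bortezomib, 39.7, 48.4, 38.7 and 43.9 CPM with nelfinavir added and 38.3, 37.3, 33.7 and 35.1 CPM with ISRIB added. Bortezomib replicate 3 lay within the DMSO range and the other three below it (a log2 fold change of -0.43 with an SE of 0.13, adjusted p = 0.00656). The ranges of the co-treatments did not overlap, with an adjusted p of 0.207. Leaving out bortezomib replicate 3 brought a call in bortezomib with nelfinavir against bortezomib (log2 fold change 0.41, adjusted p = 0.0222), where all libraries gave 0.276.

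**Figure D2:**
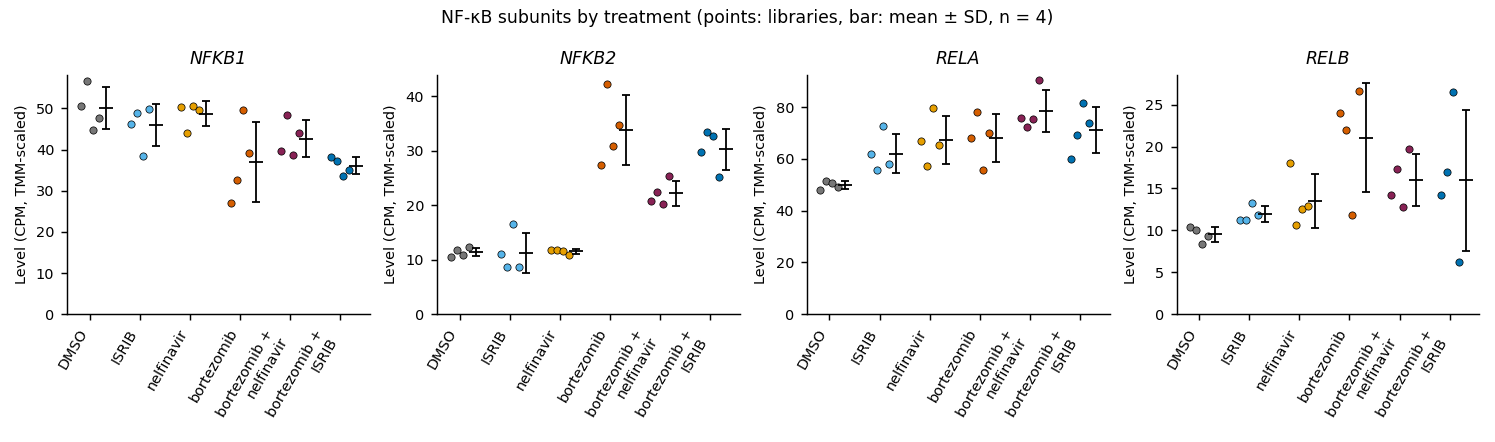
Levels of the 4 subunit genes (y axis, CPM scaled with TMM factors) in the 6 treatment groups (x axis). Points are libraries and the bar is the mean ± SD (n = 4). NFKB2 stands between 20.2 and 42.3 CPM in the 12 libraries with bortezomib and between 8.66 and 16.5 CPM in the 12 without, and RELB spreads most in bortezomib with ISRIB.

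IL8, a neutrophil-attracting chemokine, was near the limit of detection without bortezomib and was counted in every library with it (chr4:74606236-74609433, plus strand). The counts were 3, 10, 1 and 0 in DMSO, 0, 4, 6 and 10 in ISRIB, and 5, 1, 0 and 3 in nelfinavir. They were 19, 15, 8 and 17 in bortezomib, 20, 18, 8 and 10 with nelfinavir added, and 25, 22, 27 and 55 with ISRIB added. A count of 0 allows a level of up to 0.368 CPM in DMSO replicate 4, 0.378 CPM in ISRIB replicate 1 and 0.389 CPM in nelfinavir replicate 3 (3 counts, counting error only). In CPM, bortezomib stood at 4.06, 2.91, 1.69 and 3.67, against 0.349, 1.302, 0.1400 and 0 in DMSO, and the groups did not overlap. The rise was 6.67-fold (a log2 fold change of 2.74 with an SE of 0.69, adjusted p = 0.00113), and 4.005 on the log2 scale without DMSO replicate 2, which held 10 of the 14 DMSO counts. Bortezomib with nelfinavir reached 4.23, 4.09, 1.57 and 1.88 CPM and overlapped bortezomib (interval of the difference -1.26 to 1.10, log2). Bortezomib with ISRIB reached 5.57, 4.61, 5.68 and 13.6 CPM, above both other bortezomib groups in every library. The difference from bortezomib alone was 1.24 (log2) with an unadjusted p of 0.0304 and an edgeR adjusted p of 0.14, and without bortezomib with ISRIB replicate 4, the library of highest mitochondrial share, it was 0.77 (log2, adjusted p = 0.451). Between the co-treatments the adjusted p was 0.0784 for -1.32 (log2), 0.0281 with no filter on low counts, and 0.346 without that library.

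CXCL2, a related chemokine that shares the receptor CXCR2 with IL8, was barely counted, with 89 counts over the 24 libraries (chr4:74962757-74964913, minus strand). The counts per library were 4, 3, 8 and 4 in DMSO, 5, 3, 2 and 4 in ISRIB, 4, 4, 2 and 0 in nelfinavir, 0, 8, 4 and 3 in bortezomib, 5, 8, 0 and 3 with nelfinavir added and 1, 6, 3 and 5 with ISRIB added. The highest level was 1.82 CPM and all groups overlapped. No comparison called it, with adjusted p from 0.51 upward, and the 95% interval for bortezomib against DMSO of -1.23 to 1.91 (log2) was too wide for a change to be detectable at this depth. The last 500 bases of its transcripts share a stretch of 106 bases at 97.2% identity with CXCL3, so reads may be divided between them.

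**Figure D3:**
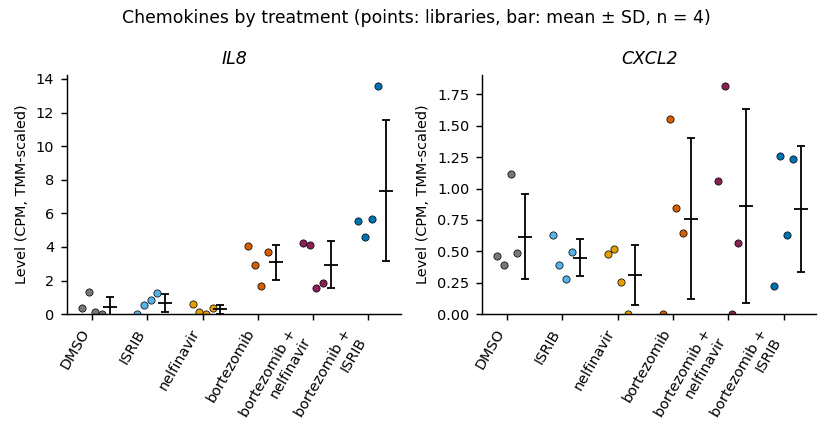
Levels of IL8 and CXCL2 (y axis, CPM scaled with TMM factors) in the 6 treatment groups (x axis). Points are libraries and the bar is the mean ± SD (n = 4). All IL8 points with bortezomib lie at or above 1.57 CPM and those without at or below 1.30 CPM, with bortezomib and ISRIB replicate 4 at 13.6 CPM, whereas the CXCL2 points overlap throughout.

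Seen by comparison, bortezomib against DMSO called 8 of the 9 members, 4 higher (IL8, NFKB2, RELB and RELA, with RELA turning under scaling by library totals) against 27.6% of all tested genes called higher, and 4 lower (TNFAIP3, NFKBIE, NFKBIA and NFKB1) against 25.8% called lower. The 9 members had a median log2 fold change of 0.34, beside 0.0017 over all tested genes. With 4 called on each side, this median is the value of CXCL2, which was not called (95% interval -1.23 to 1.91, log2). It does not show a common shift of the members. Nelfinavir against DMSO called 1 member higher, RELA, where 10.4% of all genes were higher, and 2 lower, NFKBIA and TNFAIP3, where 8.84% were lower. The median was -0.084 over the members and 0.0070 over all genes. These comparisons share the DMSO libraries and are given side by side, not as independent evidence.

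ISRIB against DMSO called 0 members in edgeR and 0 in DESeq2, with 1, RELA, at an unadjusted p under 0.05. The background was 0% of all genes in edgeR, with 703 at an unadjusted p under 0.05 and 19 called by DESeq2.

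Nelfinavir added to bortezomib called 0 members higher in edgeR, also at an unadjusted p under 0.05, where 15.6% of all genes were higher, and 3 lower (NFKBIA, TNFAIP3 and NFKB2), where 13.4% were lower, with a median of -0.40 over the members and -0.017 over all genes. ISRIB added to bortezomib called 0 members in edgeR and 0 in DESeq2, with IL8 alone at an unadjusted p under 0.05, while 12.2% of all genes were called in either direction. Bortezomib with nelfinavir against bortezomib with ISRIB called 3 members lower, NFKBIA, TNFAIP3 and NFKB2, where 24.4% of all genes were called. For NFKBIA this difference was -1.19 ± 0.098 SE (log2; adjusted p = 5.26e-11) and for TNFAIP3 -1.03 ± 0.20 SE (log2; adjusted p = 0.000299).

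The interaction of nelfinavir with bortezomib, the effect of nelfinavir with bortezomib minus that without, was called for NFKBIA alone of the 9 members, against 19.7% of all genes. RELB followed at an adjusted p of 0.0736 and NFKB2 at 0.0615, and a model of these 4 groups alone called both as well (adjusted p = 0.0381 and 0.0464). RELB was also called with no filter on low counts (adjusted p = 0.0242) and without bortezomib replicate 3 (0.0293). The interaction of ISRIB with bortezomib called 0 members in edgeR and 0 in DESeq2, with 0 at an unadjusted p under 0.05, against 4.82% of all genes.

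**Figure D4:**
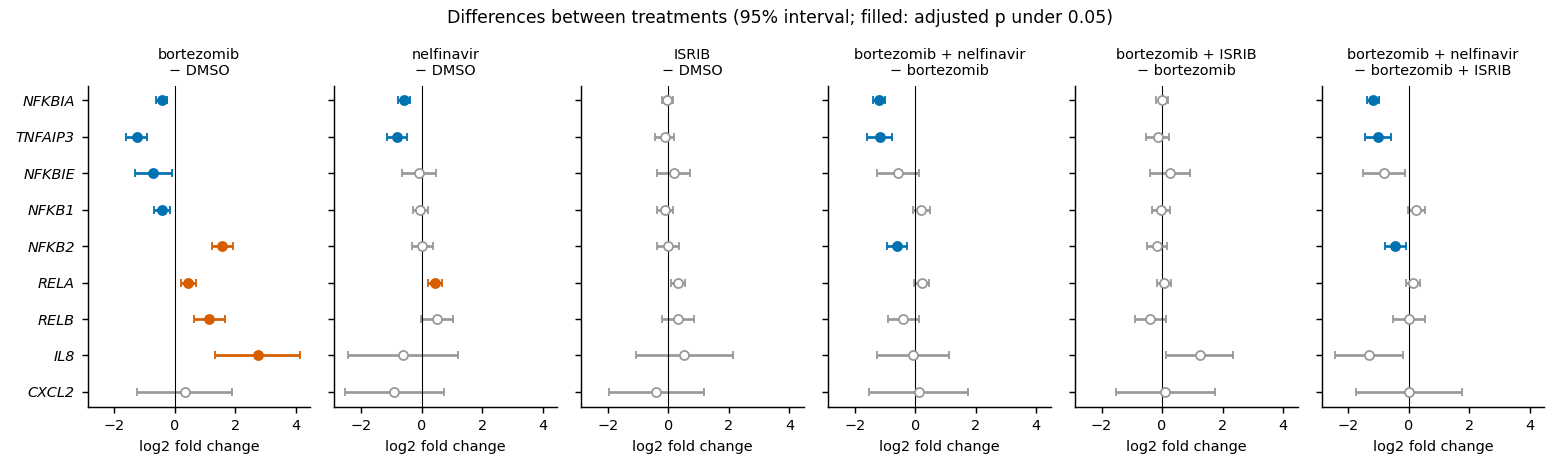
Log2 fold changes (x axis) of the 9 members in 6 comparisons, each panel named by the group minus its reference. Points are edgeR estimates with 95% intervals, filled where the adjusted p is under 0.05, orange for higher and blue for lower. NFKBIA and TNFAIP3 are filled on the lower side in every panel except the 2 that add only ISRIB. The bortezomib point of RELA is drawn with TMM factors, and its estimate of -0.046 under scaling by library totals alone is not drawn.

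Ratios of 2 members within a library do not depend on how libraries are scaled, and with 3′ reads, which are counted per transcript end, need no division by length. These ratios were chosen after the levels were seen, so their 12 exact permutation tests lend no support to shifts already visible in the same libraries. The size of a shift is given by the values and not by the p. NFKB2 per NFKB1 compares transcripts of the p100 and p105 genes, and the activity of either branch was not measured. This ratio was 0.209, 0.206, 0.244 and 0.256 in DMSO and 1.02, 1.298, 0.621 and 0.889 in bortezomib. The means were 0.229 ± 0.0251 and 0.956 ± 0.281 (SD, n = 4). It was 0.2398, 0.177, 0.429 and 0.175 in ISRIB, the widest spread without bortezomib, with replicate 3 near the values of bortezomib with nelfinavir. It ran from 0.2199 to 0.266 in nelfinavir, was 0.521, 0.465, 0.523 and 0.577 with nelfinavir added to bortezomib, and was 0.779, 0.899, 0.969 and 0.718 with ISRIB added. Bortezomib did not overlap DMSO or bortezomib with nelfinavir (two-sided exact permutation p = 0.0286, the smallest that 4 against 4 allow, adjusted over the 12 tests p = 0.0429 for both), and it overlapped bortezomib with ISRIB (exact p = 0.6).

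NFKBIA per RELA compares the transcript of the inhibitor with that of the subunit it holds, not the proteins. This ratio was 5.02 ± 0.353 in DMSO, 3.94 ± 0.198 in ISRIB, 2.49 ± 0.243 in nelfinavir and 2.75 ± 0.428 in bortezomib (SD, n = 4 each). With nelfinavir added to bortezomib it was 0.944, 1.13, 1.17 and 0.876, close to 1 count of NFKBIA for each of RELA, and with ISRIB added it was 3.06, 2.78, 2.49 and 2.06. Each of the single drugs lay below DMSO with no overlap (exact permutation p = 0.0286, adjusted p = 0.0429). ISRIB alone was included in this, and no member was called in ISRIB against DMSO. Bortezomib with nelfinavir lay below every other library (exact permutation p = 0.0286, adjusted p = 0.0429, against either other bortezomib group), and bortezomib with ISRIB overlapped bortezomib (exact p = 0.657).

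**Figure D5:**
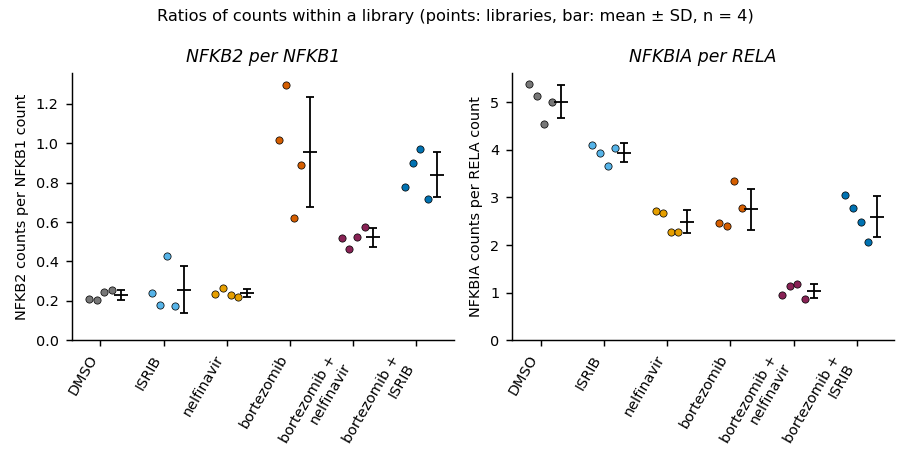
Counts of NFKB2 per count of NFKB1 and of NFKBIA per count of RELA in the same library (y axes, linear ratio) by treatment group (x axis). Points are libraries and the bar is the mean ± SD (n = 4). The first ratio rises from 0.206 to 0.256 in DMSO to 0.621 to 1.30 in bortezomib, and the second falls from 4.54 to 5.39 in DMSO to 0.876 to 1.17 in bortezomib with nelfinavir.

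Around the members, the genes of the pathway were looked at in lists by role, each described by its counts and by 1 or 2 genes per direction of smallest p. Of 19 receptors, adaptors and kinases that lead to the IκB kinase, 17 were tested, and bortezomib against DMSO called 3 higher and 5 lower, near the 27.6% higher and 25.8% lower of all genes (median log2 fold change -0.083, all genes 0.0017). The IL-1 receptor genes fell, IL1R1 from 36.1 ± 3.19 to 7.63 ± 1.38 CPM (mean ± SD, n = 4; a log2 fold change of -2.23 with an SE of 0.17, adjusted p = 4.46e-13) and its accessory chain IL1RAP from 9.24 ± 0.602 to 2.67 ± 1.001 CPM (a log2 fold change of -1.79 with an SE of 0.27, adjusted p = 1.47e-06). The main TNF receptor, TNFRSF1A, rose (log2 0.65, adjusted p = 2.09e-06), as did the kinase IKBKB (log2 0.53, adjusted p = 0.00257). Scaled by library totals alone, TNFRSF1A was at 0.15 (adjusted p = 0.225) and IKBKB at 0.031 (adjusted p = 0.869), neither called, and the IKBKB call was also lost with no filter on low counts (adjusted p = 0.0507).

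IL1RAP was higher again when either second drug was added to bortezomib. It stood at 1.94 to 4.06 CPM in bortezomib, 6.36 to 10.4 CPM with nelfinavir added and 6.17 to 8.01 CPM with ISRIB added, and rose 2.96-fold (log2 1.57, adjusted p = 8.21e-05) and 2.704-fold (log2 1.44, adjusted p = 0.000835). IL1R1 stood at 5.703 to 8.92 CPM, 5.697 to 10.9 CPM and 8.001 to 12.1 CPM in the same 3 groups. Both interactions of IL1RAP were called, at log2 2.07, adjusted p = 9.76e-05 for nelfinavir and 1.58, adjusted p = 0.00794 for ISRIB. Nelfinavir added to bortezomib called 3 of the 17 higher and 3 lower, near the 15.6% and 13.4% of all genes, among them TNFRSF1A, lower (log2 -0.42, adjusted p = 0.00216), the TNF receptor adaptor TRADD, lower (log2 -0.82, adjusted p = 0.00401), and the ligase TRAF6, higher (log2 0.82, adjusted p = 0.0187). The TRAF6 call was lost without bortezomib with nelfinavir replicate 2 or with only the compared groups in the model (adjusted p up to 0.0681). ISRIB added to bortezomib called 2 higher, beside 12.2% of all genes called in either direction. These were IL1RAP and the adaptor TRAF5 (log2 1.29, adjusted p = 0.0205), the latter lost without bortezomib replicate 3 or 4 or bortezomib with ISRIB replicate 2 or 4 or with only the compared groups in the model (adjusted p up to 0.0987).

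Between the co-treatments, 1 of the 17 was higher with nelfinavir, the TAK1-binding TAB2 (log2 0.54, adjusted p = 0.00346), and 2 were lower, TNFRSF1A (log2 -0.54, adjusted p = 0.00019) and TAB1 (log2 -0.69, adjusted p = 0.0253), the last lost without bortezomib with nelfinavir replicate 1, 3 or 4 or bortezomib with ISRIB replicate 1, 3 or 4, with no filter on low counts or with only the compared groups in the model (adjusted p up to 0.125). Of all genes, 24.4% were called between the co-treatments in either direction. The interaction with nelfinavir was called higher for 2 and lower for 3 of the list, beside 19.7% of all genes in either direction. Beside IL1RAP these included the adaptor TRAF2 (log2 1.09, adjusted p = 0.0137), lost without DMSO replicate 1 (adjusted p up to 0.0505), and, on the lower side, TNFRSF1A (log2 -0.60, adjusted p = 0.003) and TAB1 (log2 -1.17, adjusted p = 0.00462).

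The second branch had 5 of its 6 listed genes tested, the kinase gene MAP3K14 not being analysed here. Bortezomib called 3 higher and 1 lower, where 27.6% of all genes were higher and 25.8% lower (median 0.23, all genes 0.0017). The TWEAK receptor TNFRSF12A rose (log2 1.18, adjusted p = 1.08e-06), as did TRAF3, the adaptor that keeps the branch off (log2 0.77, adjusted p = 0.000258; 0.27, adjusted p = 0.178, scaled by library totals). The ubiquitin ligase BIRC3 (cIAP2), itself an NF-κB target, fell from 15.9 ± 0.563 to 3.75 ± 1.27 CPM (mean ± SD, n = 4; a log2 fold change of -2.09 with an SE of 0.25, adjusted p = 1.84e-08). Nelfinavir alone lowered BIRC3 as well, to 6.895 ± 1.95 CPM (a log2 fold change of -1.20 with an SE of 0.22, adjusted p = 0.00013). The other gene of the 5 called in nelfinavir was its paralog BIRC2, which was higher (log2 0.30, adjusted p = 0.0192). The BIRC2 call was lost without DMSO replicate 1 or 4 or nelfinavir replicate 1, 3 or 4 or with no filter on low counts (adjusted p up to 0.0775). Of all genes, nelfinavir called 10.4% higher and 8.84% lower.

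With nelfinavir added to bortezomib, 2 of these 5 genes were called higher and 2 lower, beside 15.6% and 13.4% of all genes. BIRC2 was higher (log2 0.33, adjusted p = 0.00974), lost with only the compared groups in the model (adjusted p up to 0.0768), and TNFRSF12A was higher (log2 0.52, adjusted p = 0.022), lost without bortezomib replicate 2 or bortezomib with nelfinavir replicate 2 (adjusted p up to 0.0605). TRAF3 was lower (log2 -0.53, adjusted p = 0.0204), lost without bortezomib replicate 2 or 4 or bortezomib with nelfinavir replicate 3 or 4 (adjusted p up to 0.114). BIRC3 was lower too (log2 -0.92, adjusted p = 0.0353), lost without bortezomib replicate 1, 3 or 4 or bortezomib with nelfinavir replicate 1, 3 or 4, with no filter on low counts or with only the compared groups in the model (adjusted p up to 0.208). Against bortezomib with ISRIB, BIRC2 was higher (log2 0.38, adjusted p = 0.00307) and BIRC3 lower (log2 -1.17, adjusted p = 0.0078), the latter lost without bortezomib with nelfinavir replicate 3 or with only the compared groups in the model (adjusted p up to 0.0841).

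All 5 other Rel and IκB genes were tested, and bortezomib called 3 higher, beside 27.6% of all genes (median 0.43, all genes 0.0017). NFKBIZ, a nuclear IκB that acts as a co-activator, rose from 14.04 ± 2.08 to 32.6 ± 3.71 CPM (mean ± SD, n = 4; a log2 fold change of 1.22 with an SE of 0.17, adjusted p = 2.29e-07), and NFKBIB, the gene of IκBβ, rose as well (a log2 fold change of 0.70 with an SE of 0.17, adjusted p = 0.000597), with an adjusted p of 0.296 when scaled by library totals. These moved opposite to NFKBIA and NFKBIE. BCL3, another nuclear IκB, was higher in nelfinavir (log2 0.54, adjusted p = 0.00684). NFKBIB was higher in bortezomib with nelfinavir than with ISRIB (log2 0.48, adjusted p = 0.0306), lost without bortezomib with nelfinavir replicate 3 or bortezomib with ISRIB replicate 4 or with only the compared groups in the model (adjusted p up to 0.0849), and REL had a called interaction with nelfinavir (log2 0.58, adjusted p = 0.0158).

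Of the 7 listed ubiquitin ligases, 6 were tested and bortezomib called 2 higher, near the 27.6% of all genes (median 0.19, all genes 0.0017). RBCK1 (HOIL-1), a subunit of the linear ubiquitin ligase, rose from 253 ± 4.91 to 643 ± 20.6 CPM (mean ± SD, n = 4; a log2 fold change of 1.35 with an SE of 0.088, adjusted p = 1.06e-14) and to 447 ± 37.96 CPM in nelfinavir (a log2 fold change of 0.82 with an SE of 0.087, adjusted p = 6.62e-09). FBXW11, part of the ligase that marks IκB, was called higher (log2 0.41, adjusted p = 0.0304), but it turned to -0.085 (adjusted p = 0.657) with library totals, and the call was lost without DMSO replicate 1, 2 or 3 or bortezomib replicate 1, 3 or 4, with upper-quartile factors or with no filter on low counts (adjusted p up to 0.246). Nelfinavir added to bortezomib called 2 lower, beside 13.4% of all genes. SHARPIN, a partner of RBCK1, was at log2 -0.75, adjusted p = 0.012, lost without bortezomib replicate 4 or with only the compared groups in the model (adjusted p up to 0.105). RBCK1 was at log2 -0.23, adjusted p = 0.0458, lost without bortezomib replicate 1, 2, 3 or 4 or bortezomib with nelfinavir replicate 1, 2 or 4, with RLE factors, in DESeq2, with no filter on low counts or with only the compared groups in the model (adjusted p up to 0.383). The interactions with nelfinavir were -1.05, adjusted p = 8.44e-08 for RBCK1 and -1.01, adjusted p = 0.0166 for SHARPIN (log2), the latter lost without bortezomib replicate 4 (adjusted p up to 0.0766). SHARPIN was also lower in bortezomib with nelfinavir than with ISRIB (log2 -0.65, adjusted p = 0.037), lost without bortezomib with nelfinavir replicate 1, 3 or 4 or bortezomib with ISRIB replicate 1, 2, 3 or 4, with no filter on low counts or with only the compared groups in the model (adjusted p up to 0.124).

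Of 8 deubiquitinases and partners of TNFAIP3, all tested, bortezomib called 6 higher and 0 lower, where 27.6% of all genes were higher and 25.8% lower (median 0.55, all genes 0.0017). TAX1BP1, an adaptor through which TNFAIP3 acts, rose from 211 ± 12.8 to 579 ± 21.5 CPM (mean ± SD, n = 4; a log2 fold change of 1.45 with an SE of 0.091, adjusted p = 4.16e-15), and the ligase ITCH rose too (a log2 fold change of 0.98 with an SE of 0.12, adjusted p = 3.20e-08). In nelfinavir 2 were higher, beside 10.4% of all genes, the deubiquitinase CYLD (log2 0.93, adjusted p = 0.000237) and TAX1BP1 (log2 0.46, adjusted p = 0.000253). Nelfinavir added to bortezomib called 4 higher, beside 15.6% of all genes (median 0.37, all genes -0.017). RNF11, a further partner of TNFAIP3, went from 39.8 ± 2.28 to 73.99 ± 8.38 CPM (mean ± SD, n = 4; a log2 fold change of 0.89 with an SE of 0.12, adjusted p = 6.25e-07), and OTULIN (FAM105B in these files), which cuts linear ubiquitin, from 26.8 ± 3.08 to 42.9 ± 1.83 CPM (a log2 fold change of 0.68 with an SE of 0.15, adjusted p = 0.000754). Both had called interactions with nelfinavir (log2 0.65, adjusted p = 0.00554, and log2 0.88, adjusted p = 0.00282). Against bortezomib with ISRIB 5 were higher, where 24.4% of all genes were called in either direction. They were led by RNF11 (log2 0.66, adjusted p = 7.49e-05) and ITCH (log2 0.51, adjusted p = 0.00182).

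Of 25 other known NF-κB targets, 20 were matched and 12 passed the filter, with CCL2, CXCL6, CXCL10, IL6 and PTGS2 not analysed here. Bortezomib called 4 higher and 2 lower, near the 27.6% and 25.8% of all genes (median 0.25, all genes 0.0017). SOD2, the mitochondrial superoxide dismutase, rose (a log2 fold change of 0.67 with an SE of 0.13, adjusted p = 5.02e-05; log2 0.17, adjusted p = 0.246, scaled by library totals), and GADD45B, a stress gene, rose (a log2 fold change of 1.26 with an SE of 0.25, adjusted p = 6.98e-05). CD83, a surface protein of activated immune cells, fell from 8.09 ± 1.51 to 1.84 ± 1.604 CPM (mean ± SD, n = 4; a log2 fold change of -2.13 with an SE of 0.42, adjusted p = 7.38e-05), and also in nelfinavir (a log2 fold change of -1.60 with an SE of 0.38, adjusted p = 0.00205). IRF1, an interferon-pathway transcription factor, fell with bortezomib (log2 -0.62, adjusted p = 0.00731).

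Nelfinavir added to bortezomib called 3 of these 12 targets higher and 2 lower, beside 15.6% and 13.4% of all genes. IER3, an early stress-response gene, rose from 131 ± 10.4 to 368 ± 94.3 CPM (mean ± SD, n = 4; a log2 fold change of 1.496 with an SE of 0.15, adjusted p = 1.69e-09), and GADD45B rose again (a log2 fold change of 1.19 with an SE of 0.23, adjusted p = 0.000158). SOD2 went the other way, from 151 ± 11.9 back to 82.2 ± 16.9 CPM (a log2 fold change of -0.88 with an SE of 0.13, adjusted p = 4.65e-06), beside 95.3 ± 5.95 CPM in DMSO. ICAM1, the adhesion molecule, was lower at log2 -0.36, adjusted p = 0.0493, lost without bortezomib replicate 1, 2 or 3 or bortezomib with nelfinavir replicate 1, 3 or 4, with no filter on low counts or with only the compared groups in the model (adjusted p up to 0.243). The interactions with nelfinavir were called for IER3 (log2 1.18, adjusted p = 5.79e-05) and SOD2 (log2 -0.97, adjusted p = 0.000222), for IRF1 (log2 0.93, adjusted p = 0.0137), lost without bortezomib with nelfinavir replicate 3 (adjusted p up to 0.0542), and for ICAM1 (log2 -0.61, adjusted p = 0.0216), lost without nelfinavir replicate 1, bortezomib replicate 3 or bortezomib with nelfinavir replicate 3 or 4 or with no filter on low counts (adjusted p up to 0.0819).

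ISRIB added to bortezomib raised IER3 as well, to 225 ± 44.3 CPM (a log2 fold change of 0.78 with an SE of 0.15, adjusted p = 0.000297), with an interaction of log2 0.72, adjusted p = 0.0339 that was lost without DMSO replicate 1 or 2, ISRIB replicate 1, 2 or 4, bortezomib replicate 2, 3 or 4 or bortezomib with ISRIB replicate 1, 2 or 3 or with library totals alone (adjusted p up to 0.0841). PLAU, the urokinase gene, was the second of 2 targets called there (adjusted p = 0.0457), where 12.2% of all genes were called in either direction. It had 3 counts summed over the 4 bortezomib libraries against 25 with ISRIB added. The call was lost without bortezomib replicate 1, 2 or 3 or bortezomib with ISRIB replicate 1 or 4 (adjusted p up to 0.189). Between the co-treatments 2 targets were higher with nelfinavir and 3 lower, beside 24.4% of all genes called in either direction. IER3 (log2 0.71, adjusted p = 0.000309) and GADD45B (log2 0.85, adjusted p = 0.00518) were higher. SOD2 (log2 -1.16, adjusted p = 3.85e-08) and the chemokine CCL20 (log2 -2.05, adjusted p = 0.00287) were lower. CCL20 varied widely within groups, over 3.14 to 52.7 CPM with nelfinavir and 16.6 to 142 CPM with ISRIB, beside 40.6 to 64.8 CPM in bortezomib alone and 29.3 to 37.3 CPM in DMSO. Of the 3 chemokine receptors listed, CXCR2 did not pass the filter, and CXCR1 and ACKR1 were not analysed here.

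The genes whose levels ran most like a member across the 24 libraries were taken by Pearson's r of log2 CPM, as a description of libraries that share treatment groups and scaling. For NFKBIA they were METTL7B (r = 0.94), LBX2-AS1 (r = 0.93) and SYTL2 (r = 0.92). SYTL2 had a mean of 73.2 CPM in DMSO, 27.7 CPM in nelfinavir, 25.02 CPM in bortezomib and 6.33 CPM with both. For TNFAIP3 they were C1orf131, TRIM24 and TESC (r = 0.94 each), of which TRIM24 went from a mean of 277 CPM in DMSO to 109 CPM in bortezomib and 73.1 CPM with nelfinavir added. For IL8 they were TMEM189, ANXA3 and MT-ND2 (r = 0.92 each), the last encoded in the mitochondrial genome, whose share of the counts moved with bortezomib, and its part in the IL8 result was not tested. For CXCL2, at 89 counts, the highest r was 0.67, with ZNF675.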

How the data were processed

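HepG2 RNA was profiled with QuantSeq 3′ mRNA-Seq FWD libraries. The authors trimmed reads with cutadapt 2.8 and aligned them with STAR (nf-core workflow, hg19), and the deposited values are unnormalized counts per gene of the protein coding, lincRNA and antisense classes of Ensembl (GRCh37). Not given in the sources used here were the counting program, its strand setting and whether molecular identifiers were used. Floors for a count of 0 therefore cover only the error of counting.

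Counts were analysed in R 4.3.3 with edgeR 4.0.16 (filterByExpr with a minimum count of 5 and total of 25, TMM factors, quasi-likelihood test, Benjamini-Hochberg adjustment, threshold 0.05), with a single model of the 24 libraries and 1 mean per group. An interaction is the effect of a second drug with bortezomib minus that without. Exact permutation tests, two-sided, were used for ratios. RefSeq promoter windows (GRCh38.p14) were searched in Python 3.11.15, near copies were sought with BLAST 2.17.0 (at least 80 bases at 97% identity), and gene positions are from GENCODE on GRCh37. The edgeR step was also run on simulated counts of independent libraries with known changes in both directions. That run held no replicate structure and no shift in composition, so it does not bear on either. The closest pair of replicate libraries differed by a chi-square of 2.13 per degree of freedom, so none was counted as a duplicate.

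The members and lists were chosen with earlier results of these data known. Named genes were the members, per list and comparison the 2 called genes of smallest p in each direction, and for each of 5 members the 3 genes most alike (log2 CPM with a prior count of 2), CXCL1 among them not analysed here. Alternatives were RLE, upper-quartile and library-total scaling, DESeq2 1.42.0, no filter, a default filter (10 and 15), only the groups compared, a replicate block, and each library left out in turn.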

Additional observations from a re-analysis of the deposited data

Results flagged for a closer look

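Among 66 groups of 4 libraries (the levels of the members and their ratios), 5 had a library set apart from the other three, where chance alone marks about 1 in 20. These were IL8 in bortezomib with ISRIB replicate 4, high at 13.6 CPM, NFKBIE in the same library, low at 3.21 CPM, NFKB1 in nelfinavir replicate 2, low at 44.1 CPM, NFKB2 in nelfinavir replicate 4, low at 10.9 CPM, and CXCL2 in DMSO replicate 3, high at 1.12 CPM. The first 2 are the library with the highest mitochondrial share, and its part in them was not tested.

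Among the genes named, the effect of nelfinavir differed with and without bortezomib, by the interaction in edgeR, for NFKBIA (-0.61), IL1RAP (2.07), TRAF2 (1.09), TNFRSF1A (-0.60), TAB1 (-1.17), REL (0.58), RBCK1 (-1.05) and SHARPIN (-1.01), all as log2 differences. The same held for FAM105B (0.88), RNF11 (0.65), IER3 (1.18), IRF1 (0.93), SOD2 (-0.97) and ICAM1 (-0.61). Of all genes, 19.7% had a called interaction with nelfinavir. The effect of ISRIB differed with and without bortezomib for IL1RAP (1.58) and IER3 (0.72), beside 4.82% of all genes. As given above, the calls for TRAF2, SHARPIN, IRF1 and ICAM1 with nelfinavir and for IER3 with ISRIB were lost under some settings or left-out libraries.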

How the results depend on the processing

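Of the counts of called members over 8 comparisons, 62 of 64 under another setting stayed within 1.5 times, the exceptions being the interaction of nelfinavir with bortezomib at 2 with no filter and 3 with only the groups compared, against 1. With each library left out in turn, that count ran from 1 to 2 and the count for ISRIB added to bortezomib from 0 to 1, the latter without bortezomib with ISRIB replicate 3. The directions that turned were RELA in bortezomib against DMSO (-0.046 with library totals alone), FBXW11 there (-0.085), and, with single libraries left out, 3 uncalled differences near 0: IL8 with nelfinavir added to bortezomib (-0.27 to 0.15), and with ISRIB added NFKBIA (-0.070 to 0.065) and TNFAIP3 (-0.30 to 0.069), all log2. For the first the libraries were bortezomib replicates 1 and 4 and bortezomib with nelfinavir replicates 3 and 4; for NFKBIA, bortezomib replicates 2 and 4 and bortezomib with ISRIB replicate 4; for TNFAIP3, bortezomib replicate 1. Library totals also changed the split of all genes in bortezomib against DMSO from 3498 higher and 3275 lower to 1490 and 6266. In that comparison and scaling, the log2 fold changes were -1.75 for TNFAIP3, -0.93 for NFKB1, 1.08 for NFKB2 and 0.64 for RELB. These stayed called (edgeR adjusted p up to 0.0331). Beside the replicate number, the sample titles carry a serial number. Its order departs from that of the replicate numbers in ISRIB, and pairing by it was not tested. Libraries of the same replicate number were not treated as pairs, since the labels do not say that they belong together and 10 of 60 such pairs correlated above 0.1. Against this, 7 of 180 pairs of other numbers did, and 14 of 24 libraries correlated best with their own number, a hint from the data, not the design, that numbers may share something. A block by replicate number left the count of called members at 8 in bortezomib against DMSO and changed it only between the co-treatments, from 3 to 2. Such a block does not cover a link by the serial number. Depth limits IL8 and CXCL2, at 287 and 89 counts in all.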
